A study of Drosophila melanogaster with 4 samples.

Results

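The NK homeobox genes at 93D-E of the fly chromosome arm 3R form a compact cluster of transcription factor genes, and the Polycomb group protein Psc was mapped across it by chromatin immunoprecipitation and sequencing (ChIP-seq). The clusters described are all enriched regions that overlap positions 17190000 to 17470000 of 3R (FlyBase release 5), a window of 280 kb. It holds 28 of the 2628 clusters of the replicate 1 list, 34 of 2432 in the replicate 2 list and 32 of 8687 in the combined list, or 94 of 13747 entries in all. The window was chosen by the positions of the combined clusters, which form one of the longest runs of neighbouring clusters of that list. The density of clusters in it is therefore a description of how it was chosen and was not tested.

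All samples were whole wild-type embryos of the strain Oregon-R (Oregon-R-modENCODE), aged 14 to 16 h and fixed with formaldehyde. The 4 samples were 2 Psc ChIP samples and 2 inputs, which are chromatin without the enrichment step, and the labels pair each ChIP list with 1 input. Separate embryo collections are not stated for the replicates, so the spread between them may be technical. The read depth behind a cluster is unknown, and a place missing from a list was below the submitters' threshold or not testable. Whole embryos mix many cell types, so binding in few cells and weak binding in many cannot be told apart.

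Psc belongs to the core of Polycomb repressive complex 1 (PRC1), a silencer of developmental regulator genes in the cells where they are not needed. In flies, this complex is drawn to Polycomb response elements and can spread over broad stretches marked by trimethylated histone H3 lysine 27. Clusters of homeobox genes are among its best known targets. The NK genes are an ancient homeobox group, and in Drosophila several of them specify heart, gut muscle and body wall muscle.

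The gene table used here (RefSeq, release 6 of the genome) lists all 6 named genes, in the order tin, bap, lbl, lbe, C15, slou along 3R. The gene tin (tinman) is required for the heart and dorsal mesoderm. Its neighbour bap (bagpipe) is required for the visceral mesoderm, the source of gut muscle, and is activated by tin. No protein-coding gene lies between tin and bap in this table, and none between lbl and lbe, the ladybird pair that gives identity to subsets of heart and muscle precursor cells. Between bap and lbl lie 4 other coding genes, Ugt49B2, CG7907, CheB93a and CheB93b. The gene C15 encodes a homeodomain protein of the Tlx family that patterns the tip of the leg, and it is separated from lbe by Fancm, which encodes a DNA repair helicase. The last, slou (slouch, or S59), specifies the identity of certain body wall muscles and is separated from C15 by sp3. The coding gene before tin is mod(mdg4), which encodes a family of chromatin proteins, and the one after slou is CG15498. The table is of another release than the lists, so the placing of these genes in the window rests on the stated definition of the window, and no single cluster was given to a gene.

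Psc clusters covered close to equal parts of the window in both replicates, at 47.5% in replicate 1 and 44.4% in replicate 2 (45.9% ± 2.2, SD, n = 2). The combined list covered 69.4%. Over the whole of arm 3R the covered length was 7.04% by replicate 1, 6.47% by replicate 2 and 16.8% by the combined list. The window makes up 1.0% of the length of 3R and held 6.77% of the length covered on that arm in replicate 1, 6.89% in replicate 2, and 4.15% of that in the combined list.

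**Figure D1:**
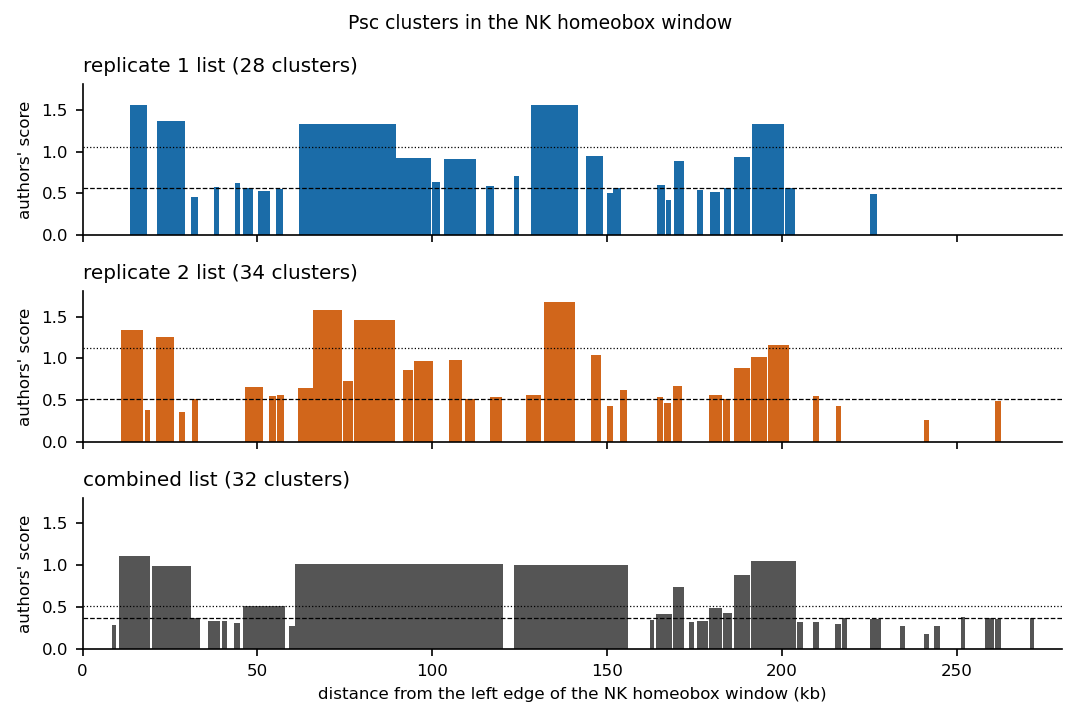
Psc clusters of the NK homeobox window in the replicate 1, replicate 2 and combined lists, drawn to scale as bars whose width is the cluster width and whose height is the authors' enrichment score (no unit named); the x axis is the distance from the left edge of the window in kb. The dashed line is the median score of the whole list and the dotted line the score that the top 10% of the list exceed; the high bars stand at the same places in both replicate lists and none lies beyond 210 kb.

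The strongest Psc signal stood at 4 places that both replicate lists share: the left end, a broad stretch, a peak near the middle and a stretch further right. Each cluster carries an enrichment score made by the authors, with no unit named, so scores are read within a list, as a percentile of all its clusters. At the left end, replicate 1 had its highest score of the window, 1.56 (percentile 97.0), at 17203474 to 17208327, and replicate 2 had 1.34 (93.7) at 17201123 to 17207377. These clusters overlapped by 3904 bp. The next pair to the right scored 1.36 in replicate 1 (17211152 to 17219299) and 1.26 in replicate 2 (17210936 to 17216191), at percentiles 94.9 and 92.2. The pairs are neighbours at the left edge of the domain, and in the combined list they were clusters of 8.59 kb and 10.9 kb with scores of 1.11 and 0.99.

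The broadest occupied stretch lay between 60.8 and 120 kb from the left edge of the window. In the combined list it was a single cluster of 59461 bp (17250824 to 17310284, score 1.01, percentile 96.8), wider than nearly all others of that list. Replicate 1 divided it into 5 clusters that covered 86.4% of it, and replicate 2 into 9 that covered 76.3% (81.4% ± 7.1, SD, n = 2). The widest replicate 1 cluster of the window was in it, at 27793 bp (17251798 to 17279590, score 1.33). Replicate 2 had 4 clusters there, which covered 95.4% of that length. Of these 4, the cluster 17255968 to 17264116 scored 1.58 and the cluster 17267692 to 17279208 scored 1.46, while the narrower 17251531 to 17255927 and 17264521 to 17267237 scored 0.65 and 0.73. The replicate 1 list gives a single score for this length, so how its signal varied within the cluster is unknown. To the right within the same stretch the scores were lower: the remaining clusters had 0.59 to 0.92 in replicate 1 and 0.51 to 0.98 in replicate 2.

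The third place was the peak of the window in replicate 2. Its cluster 17321845 to 17330815 scored 1.67 (percentile 97.4), and it lay wholly inside the replicate 1 cluster 17318162 to 17331723, which scored 1.55 (96.8). Both sit in a combined cluster of 32383 bp (17313429 to 17345811, score 1.00) that replicate 1 covered to 72.8% and replicate 2 to 61.6% (67.2% ± 8.0, SD, n = 2). Right of the peak in this cluster, a second pair scored 0.95 in replicate 1 (17333892 to 17338756) and 1.04 in replicate 2 (17335225 to 17338241).

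The fourth place was a stretch of 12.9 kb near 200 kb from the left edge (combined cluster 17381001 to 17393918, score 1.05, percentile 97.0). Replicate 1 had 1.33 at 17381285 to 17390442, with 0.56 just beside it. Replicate 2 had 1.02 at 17381005 to 17385778 and 1.16 at 17385899 to 17392096. The replicates covered 94.1% and 84.9% of it. Its left neighbour, a combined cluster of 4.75 kb (17376120 to 17380873, score 0.88), was called nearly edge to edge, with 97.2% covered in replicate 1 and 96.8% in replicate 2, at scores of 0.93 and 0.89.

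Between these places no replicate cluster scored above 0.93. The stretch 17235840 to 17247758 was a wide combined cluster of 11.9 kb with a score of 0.52 (percentile 90.2 of that list). Each replicate had 3 clusters in it, which scored 0.53 to 0.56 in replicate 1 (percentiles 38.9 to 48.1) and 0.55 to 0.66 in replicate 2 (57.4 to 75.2). The combined cluster 17353834 to 17358390 (score 0.42, percentile 75.2) held 2 clusters in each replicate, at scores of 0.42 and 0.60 in replicate 1 and 0.47 and 0.54 in replicate 2. A small but higher cluster stood at 17358852 to 17361966 (combined score 0.74, percentile 94.8), with 0.89 in replicate 1 and 0.67 in replicate 2.

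Psc coverage was low in the right part of the window. Divided into stretches of 70 kb, replicate 1 covered 48.8%, 80.5%, 57.8% and 2.82% from left to right, and replicate 2 covered 48.6%, 70.4%, 51.5% and 7.17%. The combined list covered 75.5%, 95.5%, 80.9% and 25.6%. The order of the 4 stretches was the same in all 3 lists, and the difference between the last stretch and the one before it was larger than the spread between replicates, which was 3.1 percentage points (SD, n = 2) there and 4.4 in the stretch before it. In the last stretch lay the midpoints of 1 replicate 1 cluster, with a score of 0.49, and of 3 replicate 2 clusters, with scores of 0.26 to 0.49. None of these had a partner in the other replicate.

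**Figure D2:**
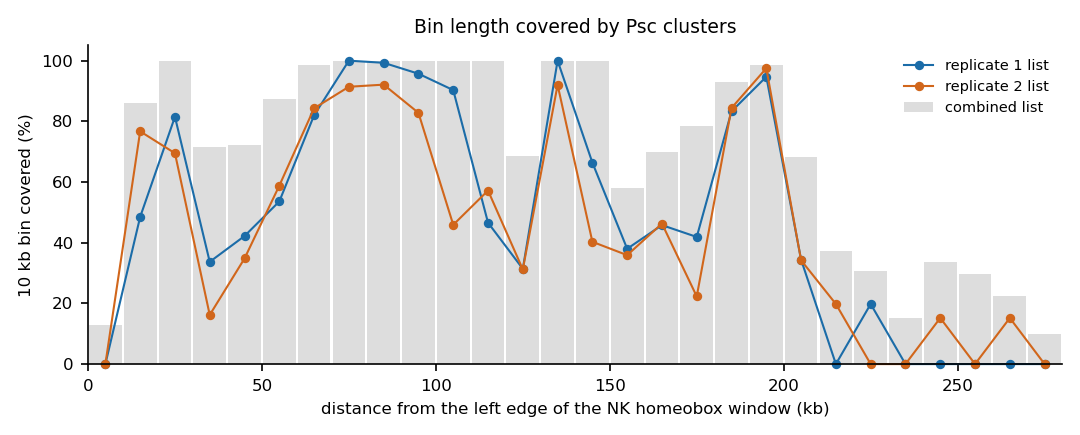
Share of each 10 kb bin of the NK homeobox window that is covered by Psc clusters, in percent, against the distance from the left edge in kb; points joined by lines are the 2 replicate lists and grey bars the combined list. Both replicates rise above 80% in the same 7 of 28 bins, and from 210 kb on no bin is covered above 19.8% in a replicate.

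At the scale of 10 kb bins, both replicates covered over 80% of the same 7 of 28 bins and over 50% of 9. In 4 bins neither list had any cluster. The median difference between the replicates over the bins was 7.7 percentage points. It was largest at 100 to 110 kb, with 90.3% in replicate 1 and 45.9% in replicate 2. Replicate 1 was higher in 14 bins and replicate 2 in 10.

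The next comparison asked how much of the pattern each replicate list found on its own. Of the 28 replicate 1 clusters of the window, 23 (82.1%, exact Clopper-Pearson 95% interval 63.1 to 93.9) overlapped a replicate 2 cluster by at least 1 bp, beside 51.4% of the whole list. Of the 34 replicate 2 clusters, 30 (88.2%, 72.5 to 96.7) overlapped a replicate 1 cluster, beside 58.7% of the whole list. These intervals cover counting error only, and neighbouring clusters are not independent. Wide clusters meet another list more readily, and the median width in the window was 2511.5 bp in replicate 1 and 3021 bp in replicate 2, against 1771.5 and 1821 bp in the whole lists. Counted by length, 102467 bp were in both lists, 30450 bp in replicate 1 only and 21928 bp in replicate 2 only. The shared length was 66.2% of the length in either list, 77.1% of replicate 1 and 82.4% of replicate 2.

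The boundaries of clusters often differed. With a required overlap of 50% of both clusters, 13 of 28 replicate 1 clusters (46.4%) had a partner, beside 43.1% of the whole list. In replicate 2 it was 13 of 34 (38.2%), beside 46.6%, so by this rule the shares in the window were near those of the whole lists. Among the 20 pairs in which each cluster was the longest overlap of the other, the 40 edges differed by a median of 511 bp and by up to 15894 bp, and 18 of them lay within 500 bp. The largest offset is the left edge of the 27793 bp cluster, which replicate 2 split into 4. The pair 17376140 to 17380758 and 17376266 to 17380869 had both edges within 126 bp of each other.

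Across these 20 pairs the score order was similar in both replicates, with rank and linear correlations of 0.91 (Spearman) and 0.96 (Pearson), given as a description over clusters of the same pair of libraries. The rank correlation over all 1294 pairs of the lists was 0.80. The raw score was higher in replicate 2 in 11 pairs and in replicate 1 in 9. No common scale of the lists is known, so this count does not rank the replicates. In 5 of the 20 pairs both clusters were in the top 10% of their list, beside 15.2% of all pairs. Pairs at low and middle percentiles moved most by rank, and the largest moves were upward in replicate 2. The median score of the whole list was 0.57 in replicate 1 and 0.52 in replicate 2, so scores near it rank higher in replicate 2. The pair 17245431 to 17247352 and 17245595 to 17247633 scored 0.55 and 0.56, at percentiles 44.5 and 58.9. The cluster 17220966 to 17222935 of replicate 1 was at percentile 17.2 (score 0.46) and its partner 17221376 to 17222991 at 48.0 (0.52). The largest move in the other direction was smaller. There, 17339945 to 17341696 was at percentile 29.5 in replicate 1 (0.51) and its partner 17339806 to 17341582 at 18.7 in replicate 2 (0.43).

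**Figure D3:**
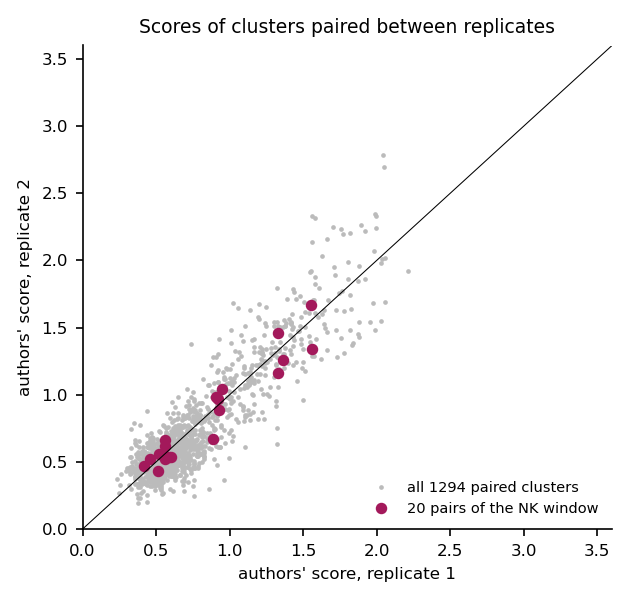
Authors' score of each cluster in replicate 1 (x axis) against its partner in replicate 2 (y axis), both with no unit named, for all 1294 paired clusters of the lists (grey) and the 20 pairs of the NK homeobox window (purple); the line marks equal values. The NK pairs run from 0.42 to 1.56 in replicate 1 and from 0.43 to 1.67 in replicate 2, and the highest NK pairs lie below the highest pairs of the whole lists.

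The clusters found in a single replicate were all under the median width of the shared ones. In replicate 1 the 5 clusters without a partner were 1305 to 1975 bp wide and scored 0.49 to 0.71 (median 0.58), while the 23 shared ones had medians of 2955 bp and 0.60. Their positions were 17227533 to 17228934, 17233523 to 17234979, 17313417 to 17314721, 17365650 to 17367307 and 17415142 to 17417116. In 4 of these 5 places the nearest replicate 2 cluster was between 1539 and 4541 bp away, and at the last it was 8314 bp away. In replicate 2 the 4 clusters without a partner were 1430 to 1873 bp wide, scored 0.26 to 0.55 and lay at the right of all shared ones, at 17398677 to 17400549, 17405398 to 17406827, 17430560 to 17432083 and 17450961 to 17452477. Their distance to the nearest replicate 1 cluster was 4982 to 33844 bp. All 9 of these clusters overlapped a combined cluster, as did every other replicate cluster of the window, beside 96.3% and 97.4% of the whole lists.

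The combined list was then read against the replicates. Of its 32 clusters in the window, 12 (37.5%, 21.1 to 56.3) met both replicate lists, beside 13.5% of the whole list. A further 4 met replicate 1 only, beside 13%, another 4 met replicate 2 only, beside 10.1%, and 12 (37.5%) met neither, beside 63.5%. The interval covers counting error only, and neighbouring clusters are not independent. The window was chosen by these same combined clusters, so the differences from the whole list were not tested. Window clusters were also wider, with a median of 2166 bp against 1449 bp, and wide clusters meet another list more readily. The 12 clusters that met both lists were wide, with a median of 6673.5 bp, and had a median score of 0.81. They made up 81.1% of the combined length of the window, counted over their whole width. Counted by base pairs, 52.7% of the combined length (102467 bp) lay in both replicate lists and 20.4% (39723 bp) in neither. Of that combined length, 47.3% was in the 59461 bp and 32383 bp clusters. The 12 clusters in neither list were 1002 to 2507 bp wide, scored 0.27 to 0.38 and added 18455 bp. Their scores lay below every score of the 12 clusters in both lists except one, the cluster 17220941 to 17223549 at 0.37.

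**Figure D4:**
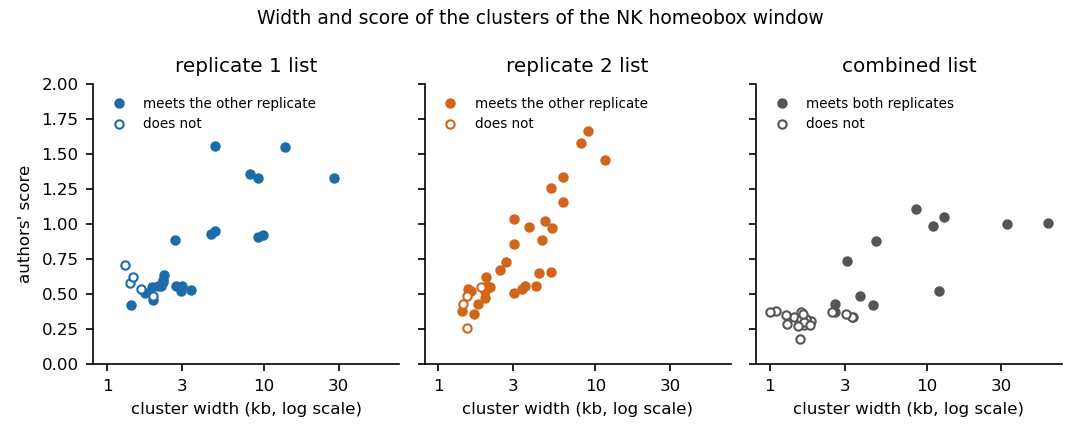
Width in kb (log scale) and authors' score (no unit named) of the clusters of the NK homeobox window in the 3 lists; filled points meet the other replicate list, or both replicate lists in the combined panel, and open points do not. Open points reach 1975 bp in replicate 1, 1873 bp in replicate 2 and 3405 bp in the combined list; all wider clusters are filled, and some filled points are as narrow and as low as the open ones.

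Wide clusters also scored higher in the window. The Spearman rho of score and width was 0.66 over the 28 replicate 1 clusters, 0.88 over the 34 of replicate 2 and 0.68 over the 32 of the combined list, where the whole lists had 0.56, 0.62 and 0.04. These are descriptions of clusters from shared libraries, and a wide cluster also contains more positions that could carry a high score. In the top 10% of the list by score were 5 clusters of replicate 1, 6 of replicate 2 and 8 of the combined list, beside 10% of each whole list. In the top 10% by width were 9, 12 and 13, also beside 10%. Above the median score of their list were 16 of 28, 24 of 34 and 13 of 32 clusters, beside 50%. The window thus joined a few high and wide clusters to many of ordinary score, and its highest scores, 1.56, 1.67 and 1.11, were well under the list maxima of 3.48, 3.10 and 3.48.

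The edges of the window did not cut through a cluster. The nearest clusters inside the left edge lay 8.33 kb (combined), 13.5 kb (replicate 1) and 11.1 kb (replicate 2) from it, with scores of 0.29, 1.56 and 1.34. The nearest outside the left edge lay 13.9 kb, 66.3 kb and 13.9 kb away, with scores of 0.37, 0.50 and 0.47. At the right edge the nearest inside lay 8.09 kb, 52.9 kb and 17.5 kb from it, with scores of 0.37, 0.49 and 0.49. The nearest outside lay 12.2 kb, 27.1 kb and 13.7 kb away and scored 0.33, 0.41 and 0.35, in the same order of lists. In both replicates the left side thus began with a cluster at percentile 97.0 in replicate 1 and 93.7 in replicate 2, and the right side ended with one at percentile 24.6 in replicate 1 and 39.9 in replicate 2.

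Joined across gaps of up to 10 kb, the combined clusters of the window formed a single domain of 264 kb (17198326 to 17461914). The largest of its 31 gaps was 8341 bp, and 16 gaps were under 1 kb. The replicate lists alone gave 3 and 4 domains. In replicate 1 these were 140 kb with 18 clusters (17203474 to 17343879), 39.6 kb with 9 (17354118 to 17393694) and the lone cluster at 17415142 to 17417116. In replicate 2 they were 21.9 kb with 5 clusters (17201123 to 17222991), 170 kb with 27 (17236519 to 17406827) and a pair of lone clusters to the right. The replicates thus broke the left and middle of the domain at different places. Replicate 1 had clusters at 17227533 and 17233523 that bridge the left gap. Replicate 2 had a spacing under 10 kb where replicate 1 breaks at 17343879 to 17354118. Further right both lists broke, replicate 1 from 17393694 to 17415142 and replicate 2 from 17406827 to 17430560, and these gaps overlap.

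The 264 kb domain was set beside the 3 other domains of the combined list nearest to it in length, with no test, since all 4 were ranked by the same list. By length it was the fourth in the list. Replicate coverage was 48.8% ± 2.3 in the NK domain, 31.8% ± 2.2 in the X domain of 273 kb (8451871 to 8724693), 53.3% ± 5.4 in the 2R domain of 243 kb (8757532 to 9000611) and 29.8% ± 0.88 in the 2L domain of 228 kb (18720946 to 18948588; SD, n = 2 for each). The NK domain thus lay above the X and 2L domains by more than the spread between replicates, and its difference from the 2R domain was smaller than the SD there. The length in both replicates over that in either was 66.2% in the NK domain, 59.8% on X, 78.3% on 2R and 52.7% on 2L. The highest scores in the NK domain were the lowest of the 4, at 1.56 in replicate 1 and 1.67 in replicate 2. In the X domain they were 1.76 and 2.33, in the 2R domain 1.82 and 1.91, and in the 2L domain 1.77 and 2.20. The widest replicate clusters, 27793 and 11517 bp, were wider than those of the X domain (7753 and 6269 bp) and the 2L domain (8917 and 6921 bp), and narrower than those of the 2R domain (93802 and 35563 bp).

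**Figure D5:**
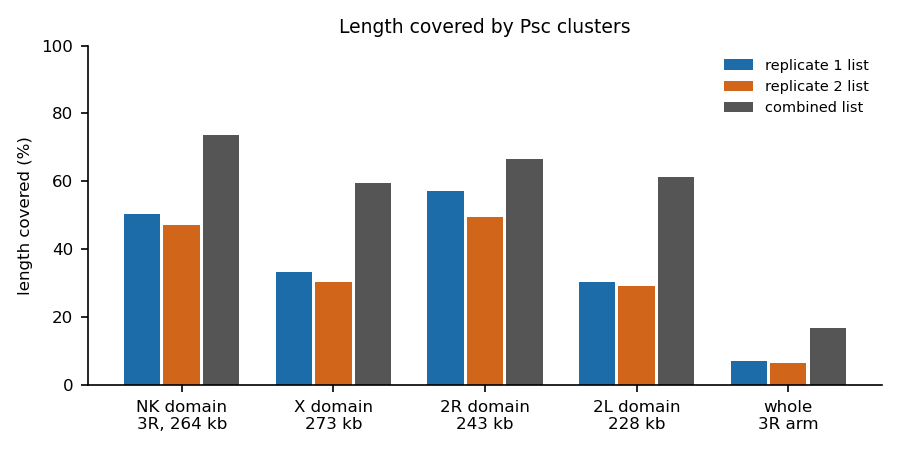
Share of the length covered by Psc clusters, in percent, in the NK domain, the 3 other domains of the combined list nearest to it in length and the whole of arm 3R; bars are the replicate 1, replicate 2 and combined lists. In the NK domain the replicates cover 50.4% and 47.2%, near the 2R domain (57.2% and 49.5%) and above the X and 2L domains.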

How the data were processed

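Psc ChIP-seq of 14 to 16 h Oregon-R embryos was read from 3 deposited lists of enriched regions: 1 per ChIP sample and 1 for the replicate set. Each region carries a score made by the authors; the deposited lists name neither its unit nor its log base. Coordinates are 1-based and of FlyBase release 5, per the file headers. Bowtie 0.12.7 is named in the submitters' processing notes. For the cluster caller, its thresholds and the joining of replicates, the method is not given in the sources used here. Of the input samples no separate values were used.

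All clusters overlapping the window were taken; overlaps needed 1 bp. Percentiles are ranks within a whole list. Domains joined clusters at most 10 kb apart. Shares carry exact Clopper-Pearson 95% intervals. No test was run, since the window was chosen from these lists. Named clusters are, in each list of the window, the 5 widest and the 5 highest by score, the replicate clusters without a partner and those next to the window edges; other clusters were named after their values were seen. The members, lists and comparisons were chosen with earlier results of these data known. Python 3.11.15, numpy 2.4.6, pandas 2.3.3, scipy 1.17.1 and matplotlib 3.10.9 were used; the interval code was tested on simulated data and gave the same counts as bedtools 2.31.1. Read depth is unknown, so no error belongs to a single score. No genome or annotation of release 5 was used here, so no sequence is shown and no gene was assigned to a cluster.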

Additional observations from a re-analysis of the deposited data

How the results depend on the processing

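Of 29 alternatives to 8 results, 15 stayed within the replicate SD, the counting interval or 1.5 times the count, and 14 moved. The 15 include coverage and median percentile with each replicate left out. There the value of 1 replicate always lies within the SD of 2, so that outcome was fixed in advance and shows no stability. Requiring 50% reciprocal overlap lowered the shared share to 46.4% of replicate 1 and 38.2% of replicate 2 clusters (43.1% and 46.6% of the whole lists), a stricter demand by construction. With clusters at or above the median score of their list only, which leaves fewer, 61.5% of combined clusters met both replicates, replicates covered 37.9% and the combined list 56.6% of the window, and the shared length was 60.9%. Merging clusters within 1000 bp, which fills the gaps, gave 71.7% covered in the combined list and 69.1% shared length. Over the domain alone, a shorter span, replicates covered 48.8% and the combined list 73.7%. A gap of 5 kb split the domain into 8, of which the largest were 147 kb and 56.5 kb; the replicate lists alone gave 3 and 4 domains. The median score percentile of the replicate clusters was 60.9, the mean of the 2 list medians, and 87.6 when weighted by width. With each replicate left out in turn, 50.0% of combined clusters met the remaining list both times, a looser demand than meeting both lists. Coverage was then 44.4% to 47.5%, and median percentiles, added after seeing the data, were 56.5 to 65.3. No paired analysis was possible because only the ChIP samples carry values, and no test was run. Unknown depth limits all scores.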
